A study of Mus musculus with 6 samples.

Results

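The iron uptake and storage genes are a set of 7 mouse genes chosen by name: Tfrc, Ftl1, Fth1, Slc11a2, Slc40a1, Ireb2 and Aco1. Their Bcl6 peaks were taken from the authors' gene list, and 3 of the 7 genes had a listed peak, 1 each, among the 3878 peaks of the data set. Of all protein-coding genes, 20.1% had a listed peak. The peak of Tfrc was 65.35-fold enriched and stood 97.8 kb upstream of the transcription start site (TSS), Ftl1 lay wholly inside a wide peak of 48.01-fold, and Fth1 had a peak of 19.95-fold just beyond the end of the gene. Slc11a2, Slc40a1, Ireb2 and Aco1 had no listed peak. The set was put together with peak values of these data known, so its peak count and folds are given as a description.

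Cells take up iron mostly as transferrin bound to the transferrin receptor, the product of Tfrc, and the transporter encoded by Slc11a2 moves the iron out of the endosome. Iron that is not used is stored in ferritin, a shell built of the heavy chain encoded by Fth1 and the light chain encoded by Ftl1, and the exporter ferroportin, encoded by Slc40a1, releases it from the cell. Aco1 and Ireb2 encode the iron regulatory proteins, which bind iron-responsive elements in the mRNAs of the other genes and so adjust uptake and storage to the iron supply. Bcl6 is a zinc finger repressor that binds DNA, best studied in germinal centre B cells and also required for the production of cortical neurons.

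The cells were cortical progenitors made from A2 lox.Cre Bcl6 mouse embryonic stem (ES) cells, a line that carries a tetracycline-inducible Bcl6 transgene. They received cyclopamine, an inhibitor of hedgehog signalling, at 400 ng/mL from day 2 to day 10, and at day 12 the transgene was switched on by 24 h of doxycycline at 1 µg/ml. One group held 3 Bcl6 ChIP libraries, made with a Bcl6 antibody, and the other 3 libraries of input DNA from the same kind of cells. All 6 libraries came from induced cells, so the transgenic and the endogenous protein cannot be told apart, and the identity of the cells cannot be checked against expressed markers in binding data. Each group had been pooled by the authors ahead of peak calling, at 11718276 retained tags for Bcl6 ChIP and 5048582 for input, so the values below are single values of the pooled data, with no replicate error and no test.

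Among all 21887 protein-coding genes 20.1% had a listed peak. Fold enrichment is the authors' ratio of ChIP over the local input background, with a median of 21.28 over all peaks and a range of 7.98 to 268.62. The p-value score is the −log10 of the p-value from the peak caller, multiplied by 10, and had a median of 71.7. Listed peaks over 2 kb wide were seen at 5.13% of protein-coding genes, and 2 of the 7 iron genes, Ftl1 and Fth1, had one.

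The uptake receptor gene Tfrc (chr16:32608896-32632794, plus strand, mm10) had the highest fold of the set. Its peak, chr16:32510573-32511593, was narrow, with a width of 1021 bp against a median of 1405 bp over all peaks. It held 61 ChIP tags (exact 95% Poisson interval 46.7 to 78.4, counting error only) and had a score of 146 and a false discovery rate (FDR) of 0.92%. Of the 3878 peaks, 61 had a fold at least as high, itself included as in the counts of this kind that follow (1.57%), while 1793 had at least as many tags (46.2%). The Tfrc peak was thus high in enrichment and ordinary in tag number.

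The position of this peak was far from the receptor gene. The list also tied it to Zdhhc19, a gene of the palmitoyltransferase family, whose TSS lay 14.8 kb away, so that Tfrc was the more distant of its 2 listed genes. The peak overlapped no gene of the RefSeq table and began 3359 bp beyond the end of Zdhhc19. Between the peak and Tfrc the table held only the pseudogene Gm5405. Of the 935 peaks whose nearest listed TSS was 5 to 50 kb away, 24 had a fold at least as high as the Tfrc peak (2.57%), and their median fold was 22.04.

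A second, weaker site lay closer to the Tfrc gene body but was not listed for it. It was centred 416 bp upstream of the TSS of Tnk2, a tyrosine kinase gene, had 21.16-fold enrichment and 62 tags, and started 10.8 kb past the end of Tfrc. Measured from the gene body, 21.9% of protein-coding genes had a peak this near or nearer. No peak overlapped the Tfrc promoter windows.

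The ferritin light chain gene Ftl1 (chr7:45457944-45459886, minus strand) had the largest peak of the set. The peak, chr7:45455533-45462113, was 6581 bp wide and held 447 tags (exact 95% Poisson interval 407 to 490). Its score of 759 was the 9th highest of all peaks, its tag count the 23rd and its width the 27th. Of the 885 peaks over 2 kb wide, 10 had a fold at least as high, and the median fold of these wide peaks was 17.29. The Ftl1 peak therefore combined a great width with a fold that wide peaks seldom had.

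The peak covered the whole 1943 bp of Ftl1, which took up 29.5% of its width. Only 69 protein-coding genes (0.315%) lay wholly inside a peak, and Ftl1 was the 1 gene of the set among them. The same peak reached 1085 bp into the end of Gys1, the muscle glycogen synthase gene, and 419 bp into the end of Bax, a gene of apoptosis. Its centre was 1061 bp downstream of the Ftl1 TSS, but its summit was 2501 bp downstream, which is 561 bp beyond the end of Ftl1 and 766 bp from the end of Gys1. The summit thus lay between genes. A summit outside protein-coding genes was found for 40.6% of all peaks over 2 kb wide and 39.8% of all peaks. The list gave Ruvbl2, an ATPase gene of chromatin remodelling complexes, as the other gene of this peak, 20.7 kb away. It did not list Gys1 or Bax for this peak. Bax was listed for a separate peak, 3602 bp from that of Ftl1. The Bax peak was centred 127 bp downstream of the Bax TSS, with 30.59-fold enrichment and 82 tags.

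The FDR of the Ftl1 peak was 11.11%, far above the 0.92% of Tfrc and the 0.67% of Fth1. High FDR values went with high scores in the authors' table: all 14 peaks with a score of at least 700 had an FDR above 5%, from 7.14 to 100%. The 10 peaks with an FDR of at least 10% had scores of 755.55 or more. A limit of 5% thus removed the peaks with the highest scores, among them the Ftl1 peak, the 9th highest. With peaks limited to an FDR of at most 5%, Ftl1 lost its peak and the set had 2 genes with a peak, where 20% of all protein-coding genes had one.

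**Figure D1:**
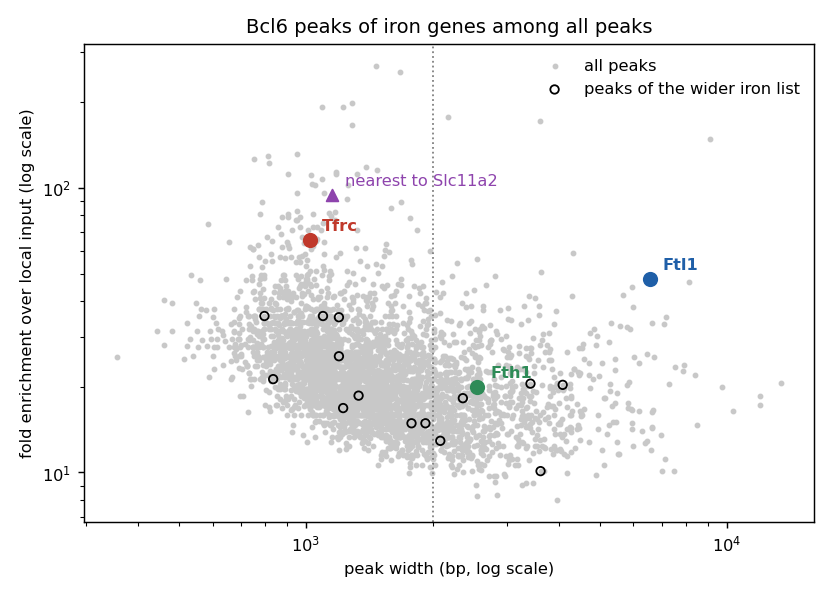
Fold enrichment over local input (vertical axis, log scale) against peak width in bp (horizontal axis, log scale) for all 3878 peaks (grey points), the 14 peaks of other iron genes (open circles), the peaks of Tfrc, Ftl1 and Fth1 (coloured points) and the peak nearest to Slc11a2 (triangle), with a dotted line at 2 kb. Tfrc lies among narrow, strong peaks at 65.35-fold, Ftl1 among the widest at 48.01-fold, and Fth1 within the bulk at 19.95-fold.

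The ferritin heavy chain gene Fth1 (chr19:9980600-9985111, plus strand) had a site of lower fold. Its peak, chr19:9985125-9987679, was 2555 bp wide with 82 tags (exact 95% Poisson interval 65.2 to 102) and a score of 95.3. The fold of 19.95 was below the median of all peaks, and 56.3% of peaks reached it. The tags and score of the peak ranked higher, reached by 27.2% and 26.8% of peaks. The Fth1 peak did not touch the gene: it began 14 bp past the annotated end, and 98.2% of its width lay in Best1, a chloride channel gene on the other strand whose TSS was 15.2 kb away. The summit was inside Best1, 878 bp from the end of Fth1.

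The distance of this peak to Fth1 depended on which start was used. The list put the centre 3699 bp downstream of a TSS that lay 57 bp from an inner RefSeq start, at 9982646. From the outermost RefSeq start, at 9980600, the centre was 5802 bp away. At either start the peak lay on the far side of the gene from the promoter.

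The count of genes of the set with a peak depended on how peaks were chosen and tied to genes. With peak centres within 5 kb of the listed TSS it was 2, Ftl1 and Fth1, where 12.8% of all protein-coding genes had such a peak. With centres within 1 kb it was 0, where 10.8% had one. With peaks at most 2 kb wide it was 1, Tfrc, where 16.6% had one. With the nearest listed TSS alone it was 2, where 14.8% had one, and with a peak in the gene body or 1 kb around it was 2, where 16.3% had one. With scores at or above the median it was 3, where 10.8% had one.

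The summit was beyond the end of the gene in both ferritin genes, at 561 bp for Ftl1 and 878 bp for Fth1. This was noticed after the values were seen, in 2 genes chosen with peak values known, and how often other genes show it was not computed. Both peaks were over 2 kb wide, as were 22.8% of all peaks. In tags per kb the values were 67.9 for Ftl1 (exact 95% interval 61.8 to 74.5) and 32.1 for Fth1 (25.5 to 39.8), against a median of 40.0 over all peaks. Tfrc had 59.7 (45.7 to 76.7). These intervals hold counting error of the pooled tags only, and whether the peaks differ was not tested. An even spread of the ChIP tags over the effective genome gives 6.27 tags per kb, and the tags were 9.53, 10.8 and 5.12 times that at Tfrc, Ftl1 and Fth1.

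**Figure D2:**
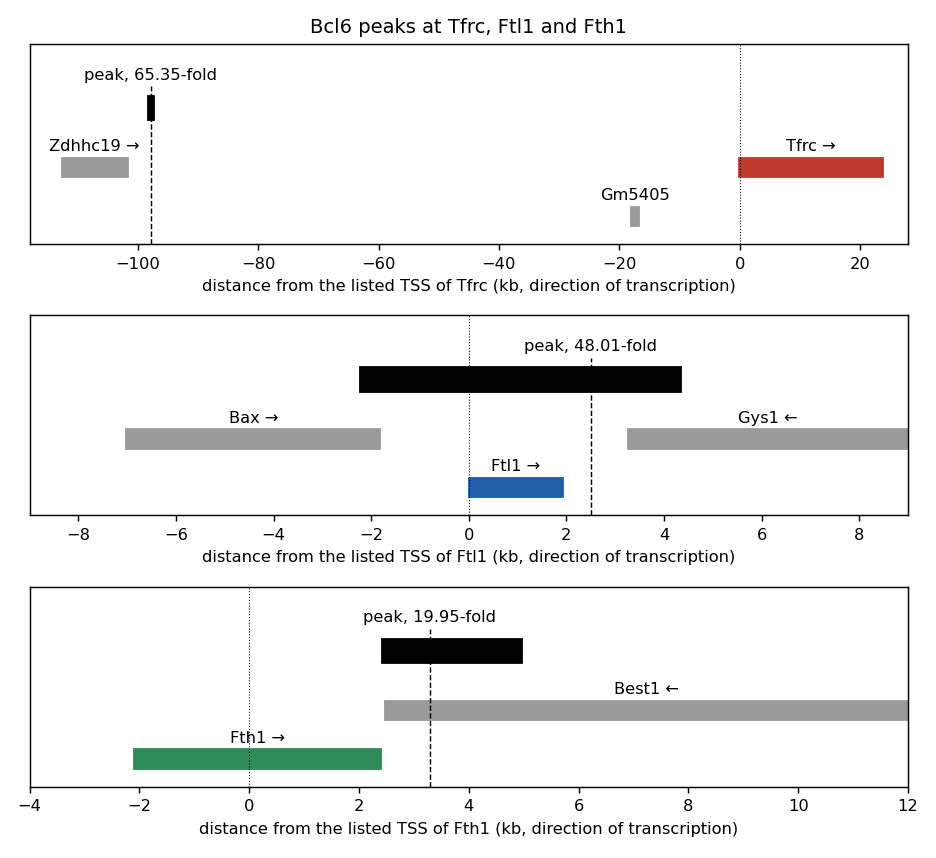
Position of the listed peaks (black bars, dashed line at the summit) of Tfrc, Ftl1 and Fth1 relative to annotated genes (coloured for the named gene, grey for others, arrows for the direction of transcription), with distance from the listed TSS in kb on the horizontal axis. The Tfrc peak stands 97.8 kb upstream next to Zdhhc19, the Ftl1 peak spans the whole gene with its summit past the end, and the Fth1 peak lies in Best1.

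Ferritin genes have copies in the mouse genome, and reads from a copy close in sequence can be placed at the parent gene or the reverse. The tags here were 26 bp long. The RefSeq table held 14 other loci named as ferritin genes or their copies, 7 of them pseudogenes. The Fthl17 genes of the X chromosome were among them, and how alike each locus is to Ftl1 or Fth1 was not computed. No peak overlapped any of the 14, and the nearest was 29.0 kb from Fth-ps3. The search took symbols that begin with Ftl or Fth, so copies under other names were not covered. How many tags of the Ftl1 and Fth1 peaks would fit more than 1 locus was not tested.

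The promoter sequences below show what stood at the start of the storage and uptake genes, since the Ftl1 window was the 1 of 7 RefSeq windows of the set, from 5 genes, that a peak overlapped. Each runs from 250 bases before to 50 after the annotated start, 5′ to 3′ on the strand of the gene, taken from RefSeq for GRCm38.p6. Capitals mark matches on either strand to GGGCGG (GC box), CCAAT (the CCAAT box), TATAAA (the TATA box) and ACGTG (core of E-box and hypoxia elements).
Ftl1, chr7:45459837-45460136, minus strand, wholly inside the peak: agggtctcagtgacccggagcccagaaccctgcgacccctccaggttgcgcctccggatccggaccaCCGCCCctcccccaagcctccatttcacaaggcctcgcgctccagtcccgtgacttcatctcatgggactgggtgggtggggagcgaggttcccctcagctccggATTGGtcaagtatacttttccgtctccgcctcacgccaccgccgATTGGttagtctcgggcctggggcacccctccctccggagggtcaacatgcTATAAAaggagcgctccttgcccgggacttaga
Fth1, inner start, chr19:9982396-9982695, plus strand, no peak: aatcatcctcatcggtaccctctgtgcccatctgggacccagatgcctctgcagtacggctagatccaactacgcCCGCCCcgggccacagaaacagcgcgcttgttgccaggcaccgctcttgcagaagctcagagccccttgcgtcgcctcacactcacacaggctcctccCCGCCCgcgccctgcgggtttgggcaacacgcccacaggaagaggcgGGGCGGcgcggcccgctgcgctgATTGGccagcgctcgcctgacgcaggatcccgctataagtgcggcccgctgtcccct
Tfrc, chr16:32608646-32608945, plus strand, no peak: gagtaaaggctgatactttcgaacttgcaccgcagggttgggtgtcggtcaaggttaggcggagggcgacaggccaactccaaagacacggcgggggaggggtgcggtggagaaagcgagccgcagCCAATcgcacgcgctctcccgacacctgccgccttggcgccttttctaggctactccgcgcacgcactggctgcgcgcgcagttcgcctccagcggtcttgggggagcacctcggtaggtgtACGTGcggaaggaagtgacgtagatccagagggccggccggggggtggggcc

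The Ftl1 promoter held the GC box at −183, counted from the annotated start, the CCAAT letters in reverse at −78 and −34, and TATAAA at 18. The Fth1 window held GC boxes at −175, −77 and −30 and a reverse CCAAT at −7. The Tfrc window shown had CCAAT at −124 and ACGTG at −2. Another RefSeq window of Tfrc, for a start at 32609122, is not shown. It held GC boxes at −35 and 4 and ACGTG at −228. Such letters are common: of 32851 promoter windows 35.7% held GGGCGG, 37.4% CCAAT, 13.6% TATAAA and 19.6% ACGTG on either strand. CCAAT and TATAAA were added to the search after the sequences had been seen.

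None of the 7 windows of the set held the core letters of a Bcl6 site, TTCCTAGAA or the looser TTCCTNGAA, or the STAT-type TTCNNNGAA, which contains both. Over all windows these were found in 0.411%, 1.59% and 8.30%. TGACNNNGC, the core of the antioxidant response element, was also absent from the 7 windows and present in 12.4% of all. The sequence under the summits of the Tfrc, Ftl1 and Fth1 peaks lies outside these windows and was not analysed here. The Ftl1 summit was 2503 bp from the annotated start.

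The transporter gene Slc11a2 (chr15:100387898-100424209), which encodes the endosomal iron importer also known as DMT1, had no listed peak. The peak nearest to it, at chr15:100323824-100324978, 62.9 kb away on its lower-coordinate side, had 94.41-fold enrichment, 113 tags and a score of 322. Only 27 of the 3878 peaks had a fold at least as high, and in fold it was above the peaks listed for the 7 genes, while the Ftl1 peak had the higher score and tag count. The list gave it to Mettl7a3, at 10.5 kb, and Mettl7a1, at 19.6 kb, both of a methyltransferase-like family. Between it and Slc11a2 lay 4 protein-coding genes, Mettl7a3, Methig1, Mettl7a2 and Higd1c. A gap of 62.9 kb or less was found for 38.5% of protein-coding genes.

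The regulator genes and the exporter gene had no listed peak either. For Aco1 (chr4:40143265-40199009), which encodes the iron regulatory protein that doubles as cytosolic aconitase, the nearest peak began 69.0 kb past the end of the gene, beyond Ddx58, and 39.7% of protein-coding genes had a peak this near or nearer. It had 17.73-fold enrichment and was listed for Topors, at 1161 bp, and Ddx58, at 28.9 kb. For Ireb2 (chr9:54862658-54912534), the other iron regulatory protein gene, the nearest peak was 414 kb away (69.4% of protein-coding genes had one this near or nearer) with 9 protein-coding genes between, and had 31.91-fold enrichment at the promoter of AI118078. For the exporter gene Slc40a1 (chr1:45908070-45926532) the nearest was 926 kb away, at the promoter of the zinc transporter gene Slc39a10, with 12.83-fold enrichment. The median gap over all protein-coding genes was 132 kb, and 82.3% of them had a peak as near as that of Slc40a1 or nearer. Sites below the peak caller's cutoff are not seen in these data, whose lowest score was 50.03, so a missing peak means only that none was called at this cutoff and depth.

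**Figure D3:**
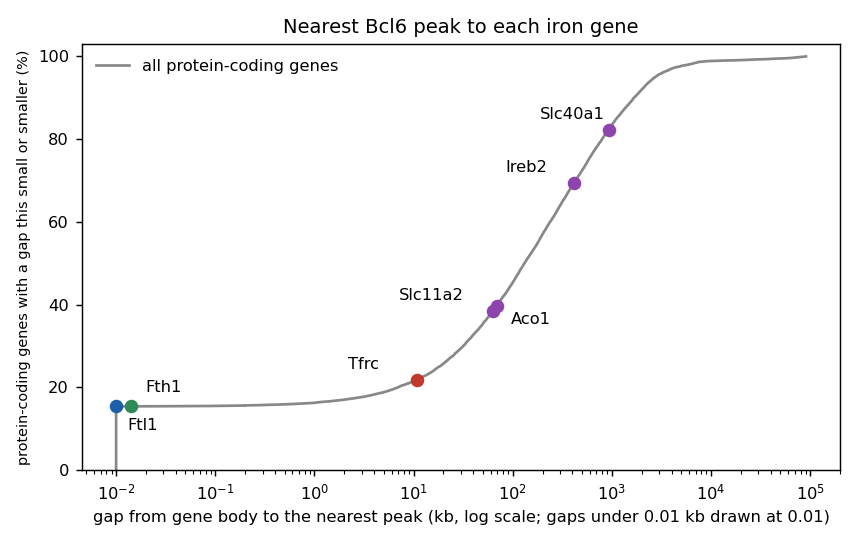
Share of all protein-coding genes (vertical axis, %) with a gap from gene body to nearest peak of at most the size on the horizontal axis (kb, log scale, gaps under 0.01 kb drawn at 0.01), with the 7 iron genes as points. Ftl1 is overlapped and Fth1 is 14 bp away, Tfrc, Slc11a2 and Aco1 follow at 10.8, 62.9 and 69.0 kb, and Ireb2 and Slc40a1 lie beyond the median at 414 and 926 kb.

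The peaks most like those of the set were found by their fold, width, tags and distance to the TSS on a log scale, each divided by its standard deviation over all listed pairs of peak and gene. For Tfrc the nearest was a peak of Hif1an, the gene of an oxygen-dependent asparagine hydroxylase that acts on hypoxia-inducible factor. It had 61.08-fold enrichment, 57 tags and a width of 1030 bp at 134 kb from the TSS, a distance of 0.229 on this scale. For Ftl1 it was a peak of the ribosomal protein gene Rpl32, with 44.68-fold enrichment, 363 tags, a width of 5951 bp and an FDR of 6.67%, 2398 bp from the TSS. That match was looser, at 0.524. For Fth1 it was a peak of the predicted gene Gm6792, with 20.49-fold enrichment and a width of 2492 bp, at 0.229.

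The other genes of iron handling were taken from a list of 35, of which 9 had a listed peak, 25.7% against 20.1% of all protein-coding genes. Within 1 kb of the TSS the count was 5 of 35, against 10.8% of all protein-coding genes. With scores at or above the median it was also 5, against 10.8% of all protein-coding genes. These shares were not tested. The list had 14 peaks with a median of 19.47-fold, beside the 21.28 of all peaks, and none reached the fold of Ftl1 or Tfrc.

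The 35 genes were also grouped by role, after their counts were known and with no test of the groups, and each count below stands beside the 20.1% of all protein-coding genes with a listed peak. Storage, chaperone and turnover genes had a peak in 4 of 5 cases. Ncoa4, the receptor that delivers ferritin to the lysosome, had a peak of 35.11-fold and 83 tags. It was listed 5867 bp downstream of the TSS, but its summit was 75 bp from an inner RefSeq start of Ncoa4. Pcbp1, an RNA-binding protein that also loads iron into ferritin, had 5 peaks from 12.92- to 35.46-fold. The highest fold was at 38.7 kb, with 55 tags. The most tags, 178, and the highest score, 172, were in a peak of 20.52-fold centred 126 bp upstream of the TSS. The Pcbp1 relative Pcbp2 had 1 peak of 14.89-fold at 297 bp. Fbxl5, the iron-sensing ubiquitin ligase subunit that removes the Ireb2 protein, carried 18.62-fold enrichment centred 160 bp upstream of its TSS. The Fbxl5 peak had a score of 54.25, near the lowest of all peaks, 50.03, and Ireb2 itself had no listed peak.

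Genes of mitochondrial iron and iron-sulfur clusters had a peak in 3 of 6 cases. Ciao1, of the cytosolic iron-sulfur assembly, had 1 of 16.84-fold at 51 bp, with a score of 55.19. The cysteine desulfurase gene Nfs1 had peaks of 10.11- and 20.32-fold, with scores of 58.47 and 105.51. The mitochondrial iron importer gene Slc25a28 had 1 of 21.28-fold at 43.8 kb, with a score of 63.61.

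Of the 9 genes of uptake and reduction, only Steap3, an endosomal ferrireductase gene, had a peak, of 25.61-fold and 31 tags. Its score of 51.05 was near the lowest of all peaks, 50.03. Like the Ncoa4 peak, the Steap3 peak was listed over 5 kb from the TSS, at 5739 bp. Its summit was likewise near an inner RefSeq start, at 164 bp. In the haem and folate group 1 of 6 genes had a peak, the folate and haem carrier gene Slc46a1, at 35.46-fold 234 bp from its TSS. The Slc46a1 peak held 33 tags, and 90.7% of all peaks held at least as many. None of the 6 genes of systemic control, Hamp and Hfe among them, and none of the 3 ferroxidase genes had a listed peak.

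**Figure D4:**
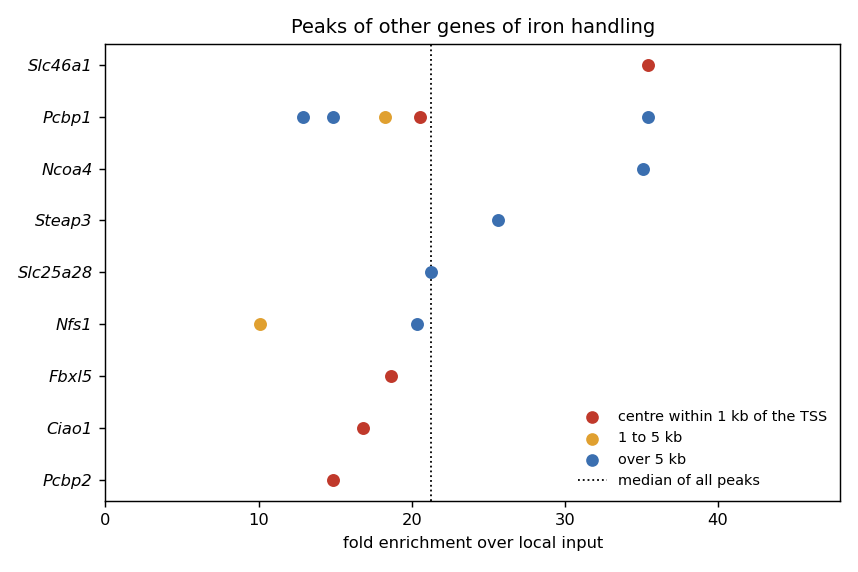
Fold enrichment over local input (horizontal axis) of the 14 peaks of the 9 other iron genes with a listed peak (rows), coloured by the distance of the peak centre to the listed TSS, with a dotted line at the median of all peaks. Pcbp1 reaches 35.46-fold with a peak over 5 kb from its TSS and has another of 20.52-fold within 1 kb. The 5 genes with a peak centre within 1 kb also include Slc46a1 at 35.46-fold and Pcbp2 at 14.89-fold.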

How the data were processed

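Chromatin immunoprecipitation and sequencing (ChIP-seq) compared 3 Bcl6 ChIP libraries with 3 input libraries, which the authors pooled by group. MACS 1.4.2 called the peaks at a p-value cutoff of 1e-05 from tags of 26 bp and fragments of 188 bp, with duplicate positions reduced to 1 tag, per the file headers. Bowtie and the mm10 build are named in the submitters' processing notes, with no version of Bowtie. Tags per peak were deposited as raw counts of the pooled ChIP. Keeping 1 tag per position left 20.6% of the ChIP and 39.4% of the input tags. The fold enrichment is the authors' ratio over the local input background within 1000 to 10000 bp. The score was deposited under an overwritten column name and was identified as 10 times −log10 p from the order of columns and its minimum of 50.03. The FDR is a percent in the authors' deposited table.

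Per the file headers, GREAT 3.0.0 tied genes to peaks on mm10, by a domain from 5000 bp before to 1000 bp after each TSS that reached at most 1000000 bp further. Its peak numbers were read as rows of the peak table. Gene bodies came from the RefSeq table of GRCm38.p6, the same build, matched by symbol or unique older symbol. Gaps, overlaps, exact Poisson intervals (scipy 1.17.1) and motif matches were computed, and the gap and motif searches were checked on simulated data. The members and lists were chosen with earlier results of these data known. Some genes of the wider iron list are not reported here. Named were all members and their peaks' listed genes, the other iron genes with a peak, and the most alike peak for each member; neighbouring genes were named after their values were seen.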

Additional observations from a re-analysis of the deposited data

How the results depend on the processing

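Under the alternatives run, the fold of the strongest peak was the same for Tfrc, Ftl1 and Fth1 wherever that peak was kept, since each had a single peak. The number of genes of the set with a peak was 3, where 20.1% of all protein-coding genes had one. It was 1 with peaks at most 2 kb wide (Tfrc), where 16.6% of all protein-coding genes had one. With peak centres within 1 kb of the TSS, which Ftl1 missed at 1061 bp, it was 0, where 10.8% had one. It was 2 with an FDR of at most 5% (20% of all protein-coding genes) and within 5 kb (12.8%). It was also 2 with the nearest TSS alone (14.8%) and with any overlap of the gene body and 1 kb around it (16.3%). Of the 35 other iron genes 9 had a peak, where 20.1% of all protein-coding genes had one. The count was 5 with scores at or above the median and 5 within 1 kb. Under each of these rules 10.8% of all protein-coding genes had a peak, since each keeps a smaller share of the peaks by construction. The distance of the Ftl1 peak to the TSS was 2501 bp from the summit in place of 1061 bp from the centre.

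No paired analysis was possible because the peaks were called on pooled libraries, and for the same reason no library was left out. The lowest deposited score, 50.03, lies at the p-value cutoff of the peak caller, and the effect of depth was not tested.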
